A study of Mus musculus with 8 samples.

Results

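The melanocortin genes examined here were the 5 receptor genes Mc1r to Mc5r, the accessory protein genes Mrap and Mrap2, the ligand precursor gene Pomc and the antagonist gene Agrp, 9 of 55487 gene identifiers in the deposited tables. Each was matched by its Ensembl identifier to a mouse symbol on GRCm38, and all 9 were found. The family was put together around Mc5r because its level differed between the genotypes compared here. The genotype differences of these 9 genes are therefore given as a description, with no test.

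RNA was sequenced from islets picked by hand out of the pancreas of C57BL/6J mice, which from 10 weeks of age ate a diet with 60 kcal% fat for 2 weeks. The 5 Ide+/+ libraries came from mice with an intact gene for insulin-degrading enzyme, a protease that cleaves insulin and other short peptides, and the 3 Ide-/- libraries from mice without it. All libraries shared the strain and the diet, and no library on a standard diet was analysed here. The labels do not say how the Ide allele was made or how many animals gave each islet sample, so p-values measure the spread between these samples only.

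Melanocortin receptors are G protein-coupled receptors of the cell surface that raise cAMP through the stimulatory G protein Gs. Their agonists, adrenocorticotropin (ACTH) and the melanocyte-stimulating hormones (MSH), are cut from the POMC precursor by prohormone convertases, enzymes that islet cells also use to make insulin and glucagon. MC1R acts in pigment cells, MC2R is the ACTH receptor of the adrenal cortex, MC3R and MC4R regulate energy balance in the brain, and MC5R is known for its role in the secretion of exocrine glands.

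Pomc is on the plus strand of GRCm38 chromosome 12, from 3954951 to 3960642. It carries 3 copies of the message that melanocortin receptors recognise, the codons for histidine, phenylalanine, arginine and tryptophan. They are printed here because Pomc was the only agonist gene of the family and its transcript was counted in every library. An in-frame search of the coding sequence of 705 bases in GENCODE M21, with any synonymous codon allowed, found the 3 copies in exon 3, all inside the coding part, and they were named by their known order in the precursor. Each stretch is 39 bases long, with the 4 core codons in capitals, at chr12:3959986-3960024, chr12:3960130-3960168 and chr12:3960322-3960360.
gamma-MSH: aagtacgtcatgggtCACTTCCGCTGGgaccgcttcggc
alpha-MSH: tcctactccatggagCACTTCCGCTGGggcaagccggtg
beta-MSH: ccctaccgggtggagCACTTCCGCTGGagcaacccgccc
The 12 core bases of the gamma-MSH and beta-MSH copies differed from those of the alpha-MSH copy at 0 positions, while the flanks differed. The read tables are per gene and do not show which peptide was made.

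The Ide+/+ libraries held 19277269 to 33371642 counts, 128261440 in all, and the Ide-/- libraries 7143415 to 17445935, 37827280 in all. Mitochondrial genes took 0.512% to 9.43% of counts in Ide+/+ and 9.81%, 15.1% and 28.2% in Ide-/-. Total depth and mitochondrial share thus both separated the genotypes, and their part in the differences below was not tested. The TMM-scaled library sizes overlapped, at 9320094 to 39282570 in Ide+/+ and 10909058 to 35913335 in Ide-/-. Ide itself was 19.5 to 39.2 CPM (counts per 1000000 counts of the TMM-scaled library) in Ide+/+ and 0.167 to 0.367 CPM in Ide-/-, which fits the labels. All mice are labelled female, yet Ddx3y of the Y chromosome had 0 counts only in Ide+/+ replicate 1 and 503 to 2139 in the other 7 libraries, and Xist had 692 counts in that library and at most 11 elsewhere. Values without Ide+/+ replicate 1 are therefore given for Mc5r, Pomc and each list of genes. The 28 acinar marker genes took 23.0% to 40.3% of counts in Ide+/+ and 0.684% to 1.47% in Ide-/-. All 28 were lower in Ide-/- (edgeR adjusted p under 0.05), against 10.6% of all tested genes. In bulk tissue fewer cells of a type and less RNA per cell cannot be told apart.

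Mc5r (ENSMUSG00000007480; chromosome 18, 68337596 to 68342446, plus strand) was counted almost only in Ide-/- islets. The Ide+/+ libraries held 0, 8, 14, 5 and 0 Mc5r counts (replicates 1 to 5), and the Ide-/- libraries 320, 80 and 73 (replicates 1 to 3). Ide-/- replicate 3, the shallowest library by total counts, thus held more Mc5r counts than all 5 Ide+/+ libraries together, which held 27. By TMM-scaled size it was not the shallowest. Its 10909058 lay above the 9979423 and 9320094 of Ide+/+ replicates 1 and 5, the libraries with 0 Mc5r counts. In CPM the levels were 0, 0.204, 0.498, 0.295 and 0 in Ide+/+ and 8.91, 3.25 and 6.69 in Ide-/-, and the groups did not overlap. For the Ide+/+ libraries with 0 counts, a limit of 3 counts allows up to 0.301 CPM in replicate 1 and 0.322 CPM in replicate 5. The group means were 0.199 ± 0.211 CPM (SD, n = 5) and 6.29 ± 2.85 CPM (SD, n = 3).

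The fitted log2 fold change of Mc5r, Ide-/- over Ide+/+, was 4.64 (SE 0.55), the third largest upward value of 16266 tested genes (rank 3). Mc5r passed the low-count filter only through the Ide-/- libraries, so a gene like it had to differ to be tested at all. Without Ide+/+ replicate 1 the log2 fold change was 4.44, and over the 8 fits that left out 1 library each it ranged from 4.29 to 5.22. Mc5r was chosen for this difference, so the scalings that follow describe its size and do not test its direction. Relative to all counts the ratio of group means was 57.7, relative to counts outside acinar and amylase genes 31.0, and relative to 10000 counts of secretory granule genes 34.8, and in each of these scales the groups did not overlap. In the last scale the Ide+/+ mean was 0.539 ± 0.568 and the Ide-/- mean 18.7 ± 7.10.

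The Ide-/- libraries also differed among themselves. Mc5r was lowest in Ide-/- replicate 2, where the 95% exact binomial interval, which covers counting error only, ran from 2.58 to 4.05 CPM. It was highest in replicate 1, with an interval of 7.96 to 9.94 CPM, so these libraries differed by more than counting error. Replicate 3 had an interval of 5.25 to 8.41 CPM.

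**Figure D1:**
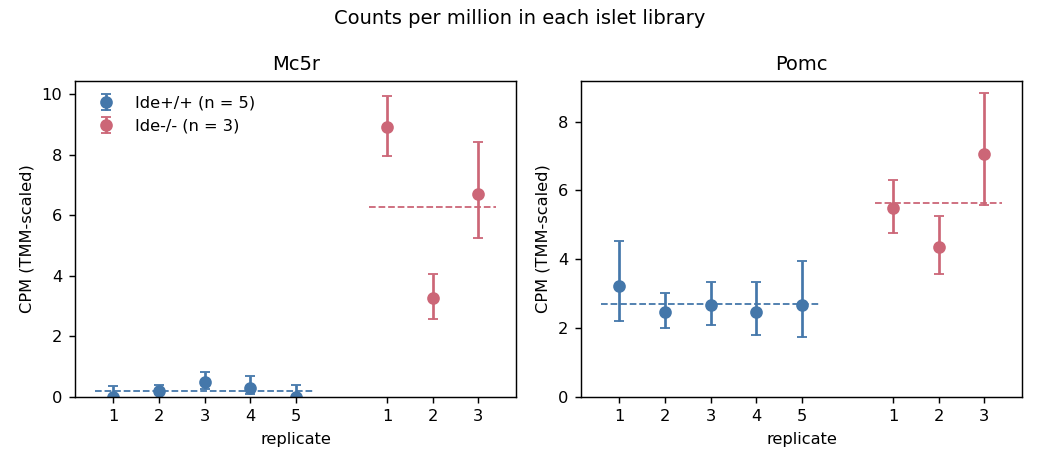
Levels of Mc5r (left) and Pomc (right) in TMM-scaled CPM on the y axis for each library on the x axis, with Ide+/+ in blue and Ide-/- in red; bars are 95% exact binomial intervals of counting error and dashed lines are group means. All Mc5r values of Ide+/+ are at or below 0.498 CPM and those of Ide-/- at or above 3.25 CPM, while for Pomc the highest Ide+/+ value is 3.21 CPM and the lowest Ide-/- value 4.35 CPM.

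All 8 Mc5r values were whole numbers before rounding, and no annotated gene overlaps Mc5r in GENCODE M21. The deposited tables list 2 transcripts for the gene, and the length column, a mean weighted by the estimated share of each transcript, was 3904 bases in all 3 Ide-/- libraries and in Ide+/+ replicates 2 and 3. That is the length of the only Mc5r transcript in GENCODE M21, so the reads of these libraries were assigned to that form. In Ide+/+ replicate 4, with 5 counts, the weighted length was 2729 bases.

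The other receptor genes were at or near the limit of detection in both genotypes. Mc4r (chromosome 18, 66857704 to 66860506, minus strand) had 2, 14, 6, 6 and 1 counts in Ide+/+ and 6, 3 and 2 in Ide-/-. Its levels of 0.246 ± 0.107 CPM in Ide+/+ and 0.158 ± 0.032 CPM in Ide-/- overlapped. Mc1r (chromosome 8, 123407107 to 123410744) had 3 counts and Mc2r (chromosome 18, 68406907 to 68429320) 2 counts in the whole series of 166088720 counts. Mc3r (chromosome 2, 172248492 to 172251114) had 0 counts, which allows up to 0.0171 CPM over the 8 libraries together. Mc1r overlaps other annotated genes on both strands, and with the strand setting not given in the sources used here its few reads cannot be assigned with certainty. Mc2r, the neighbour of Mc5r on chromosome 18, thus stayed at the floor where Mc5r did not, with 2 counts over Ide+/+ and 0 over Ide-/-.

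The accessory proteins are small membrane proteins that bind melanocortin receptors. MRAP is needed to bring MC2R to the cell surface, and MRAP2 acts on MC4R and also on the ghrelin receptor. Mrap (chromosome 16, 90738207 to 90749785) had 1, 5, 6, 4 and 1 counts in Ide+/+ and 6, 5 and 8 in Ide-/-. Its position relative to the other group depended on the scale. In TPM, the authors' length-corrected share of the library, the Ide-/- values of 0.28, 0.38 and 0.89 lay above the Ide+/+ values of 0.06 to 0.25, but in TMM-scaled CPM the Ide-/- values of 0.167, 0.203 and 0.733 overlapped with the 0.1002 to 0.236 of Ide+/+. Mrap2 (chromosome 9, 87144306 to 87184045) had 5, 2, 3, 2 and 0 counts in Ide+/+ and 2, 4 and 4 in Ide-/-, which overlapped in either unit.

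Pomc (ENSMUSG00000020660), the precursor gene of ACTH, the MSH peptides and beta-endorphin, was counted in all 8 libraries and was higher in Ide-/- islets. The Ide+/+ libraries held 32, 97, 75, 42 and 25 counts and the Ide-/- libraries 197, 107 and 77. In CPM the Ide+/+ values were 3.21, 2.47, 2.67, 2.47 and 2.68, a narrow range, and the Ide-/- values were 5.49, 4.35 and 7.06. Every Ide-/- value lay above every Ide+/+ value, with means of 2.70 ± 0.301 CPM (SD, n = 5) and 5.63 ± 1.36 CPM (SD, n = 3). How many of all tested genes separate the groups in this way was not counted, so the separation only describes Pomc. The fitted log2 fold change was 1.06 (SE 0.23), and 1.11 without Ide+/+ replicate 1. Among the upward values of the 16266 tested genes, that of Pomc had rank 1420, far below the rank of Mc5r. Relative to all counts the ratio of means was 4.95, in TPM 3.63, outside acinar and amylase genes 2.13 and relative to secretory granule genes 2.29. In the granule scale the highest Ide+/+ value, 12.04 counts per 10000 granule counts in replicate 5, came close to the lowest Ide-/- value of 13.4. Pomc passed the low-count filter in all 8 libraries.

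Agrp encodes the agouti-related peptide, which blocks MC3R and MC4R. Its identifier held 10 counts in all, 0, 1, 1, 3 and 0 in Ide+/+ and 3, 0 and 2 in Ide-/-. The annotated span of Agrp, chromosome 8 from 105566698 to 105637393 on the minus strand, includes transcripts that start far upstream and overlaps other genes on both strands, Ctcf among them. The groups overlapped.

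Of the 9 genes, 2 passed the low-count filter, Mc5r and Pomc, and the other 7 did not. As the family was put together from this contrast, no call is given for them. Over all 16266 tested genes 10.4% were higher in Ide-/- and 10.6% lower at an edgeR adjusted p under 0.05, 21.1% in either direction, and the counts for other gene lists stand beside these shares. The balance of calls over all genes depends on the unit. With limma on log2(TPM + 1) values 5214 genes were higher and 363 lower, against 1699 and 1727 in the main fit, and the median log2 difference of all genes was 0.50 instead of -0.008.

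Compared per transcript length, in mean TPM, Pomc came first of the 9 genes in both genotypes, with 2.26 ± 0.808 in Ide+/+ and 8.21 ± 1.38 in Ide-/-. In Ide+/+ the next were Mrap at 0.148 ± 0.073, Mc4r at 0.070 ± 0.048, Agrp at 0.066 ± 0.086, Mc5r at 0.054 ± 0.058 and Mrap2 at 0.050 ± 0.045. The means of Mrap and Mc4r lay farther apart than either SD, with overlapping ranges of 0.06 to 0.25 and 0.02 to 0.14 TPM, and from Mc4r on each gene was within the spread of the next. In Ide-/- Mc5r came second with 2.15 ± 1.16 TPM, above Mrap at 0.517 ± 0.327 and below Pomc, and the ranges of these 3 genes did not overlap. Agrp (0.200 ± 0.187), Mrap2 (0.127 ± 0.090) and Mc4r (0.073 ± 0.015) followed with overlapping ranges.

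**Figure D2:**
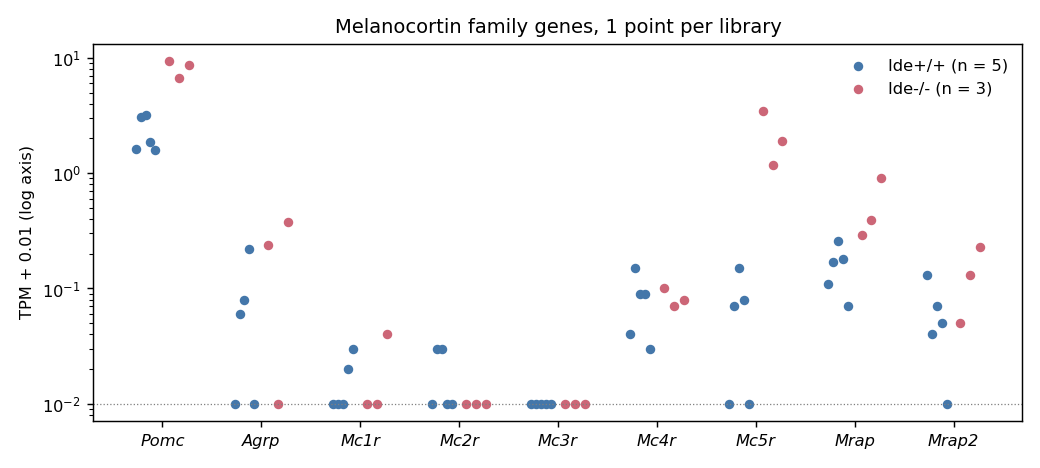
TPM + 0.01 on a log y axis for the 9 melanocortin genes on the x axis, 1 point per library, Ide+/+ in blue and Ide-/- in red; the dotted line marks 0 TPM. Pomc and Mc5r are the genes with Ide-/- points above 1 TPM, and all Mc3r points are at 0.

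Mc5r held a different place among receptors that signal through Gs in each genotype. Of 25 such receptor genes, the 5 melanocortin receptors and 20 others, Mc5r was number 18 by mean TPM in Ide+/+ and number 6 in Ide-/-, an order that follows from the difference for which the gene was chosen. Neither place is sharp, as in each genotype the mean of a receptor next to it in the order lay within the SD of Mc5r. In Ide-/- Mc5r lay below Vipr1, a receptor for vasoactive intestinal peptide, at 3.83 ± 0.160 TPM, whose range did not overlap with that of Mc5r. The incretin receptor genes Glp1r (18.7 ± 3.64) and Gipr (18.1 ± 3.99) and the glucagon receptor gene Gcgr (10.02 ± 4.06) were higher.

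**Figure D3:**
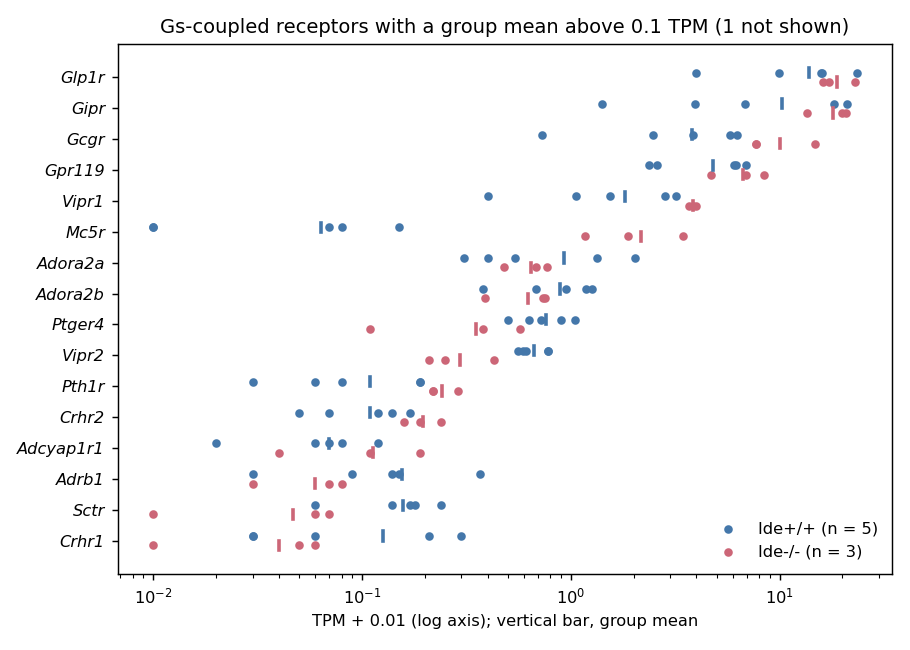
TPM + 0.01 on a log x axis for Gs-coupled receptor genes with a group mean above 0.1 TPM (1 of them is not shown), ordered on the y axis by the Ide-/- mean; points are libraries (blue Ide+/+, red Ide-/-) and vertical bars are group means. Mc5r is the receptor whose Ide+/+ points, 0 to 0.14 TPM, lie farthest to the left of its Ide-/- points, 1.16 to 3.42 TPM.

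The other Gs-coupled receptors that were called were lower in Ide-/-. Of the 20, 13 passed the low-count filter, and 5 of these fell and 0 rose (edgeR adjusted p under 0.05), 38.5% against 10.6% lower over all tested genes, with a median log2 fold change of -0.45. That median rested on 1 library: without Ide+/+ replicate 1 it was -0.04, while the same 5 of 13 were called, against 13.3% lower over all genes then tested. On log2(TPM + 1) and log2(TPM + 0.1) values it was 0.11 and 0.55. Ptger4, a prostaglandin E2 receptor, fell from 3.54 ± 0.997 to 0.872 ± 0.552 CPM (adjusted p = 0.0093), and Vipr2, a further receptor for vasoactive intestinal peptide, from 3.15 ± 1.79 to 0.652 ± 0.233 CPM (adjusted p = 0.0114). The adenosine receptor genes Adora2b and Adora2a had log2 fold changes of -1.40 (SE 0.42) and -1.26 (SE 0.40). Glp1r had 124.7 ± 108 and 83.0 ± 8.78 CPM (adjusted p = 0.43), and Gipr 25.5 ± 15.6 and 33.1 ± 0.180 CPM (adjusted p = 0.60).

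The receptor count depended on single libraries. It dropped to 3 when Ide+/+ replicate 3 was left out, to 2 when Ide+/+ replicate 4 or Ide-/- replicate 1 was, and to 1 when Ide-/- replicate 2 or replicate 3 was, and with limma on log2(TPM + 1) it was 0. Macrophage and acinar markers were also lower in Ide-/-, as were 8 of 11 duct markers and 2 of 2 tested lymphocyte markers. Whether any of them followed the receptors from library to library was not tested. Of 8 tested macrophage markers 7 were lower, against 10.6% of all tested genes. The summed level of the macrophage list was 295 to 559 CPM in Ide+/+ and 69.8 to 120.5 CPM in Ide-/-. The part of any of these cell types in the receptor levels was not tested.

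Downstream of the receptors, genes of the cAMP relay were called in both directions. The list held Gnas, adenylyl cyclases, protein kinase A subunits, the exchange factors of the EPAC type, CREB family genes, arrestins and phosphodiesterases. Of 35 tested members 4 rose and 2 fell, 17.1% against 21.1% of all tested genes, with a median log2 fold change of 0.08. By direction, 11.4% rose and 5.71% fell, against 10.4% and 10.6% of all tested genes. Without Ide+/+ replicate 1, 4 rose and 2 fell, with a median of 0.05. The count called was thus not above the background and nothing is read from it about the list. Its called genes are described singly. Pde10a, a phosphodiesterase that breaks down cAMP and cGMP, rose from 8.38 ± 5.86 to 34.8 ± 5.79 CPM, a log2 difference of 2.00 (SE 0.46, adjusted p = 0.0116). The cAMP phosphodiesterase gene Pde4c rose from 1.44 ± 0.471 to 3.55 ± 0.940 CPM, while its relative Pde4a fell from 5.23 ± 1.17 to 1.76 ± 0.288 CPM (adjusted p = 0.0025). The adenylyl cyclase gene Adcy9 rose from 8.78 ± 1.79 to 15.7 ± 2.35 CPM (adjusted p = 0.0161).

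The remaining members called, named after their values were seen, were Rapgef4, which encodes the cAMP sensor EPAC2, at a log2 fold change of 0.61 (SE 0.19), and the arrestin gene Arrb1 at -1.23 (SE 0.38). Gnas, the gene of the Gs alpha subunit, had 287.6 ± 49.5 and 312.8 ± 34.1 CPM (adjusted p = 0.76). The kinase A catalytic gene Prkacb had 99.4 ± 34.9 and 91.2 ± 7.98 CPM (adjusted p = 0.78). The count of 6 dropped to 2 when Ide-/- replicate 1 was left out and to 3 when Ide-/- replicate 3 was. Among the fits that left out 1 library, Rapgef4 was called only in that without Ide+/+ replicate 1. The call of Arrb1 was lost without Ide+/+ replicate 4 or 5 or without Ide-/- replicate 1 or 2. Adcy9 and Pde4c lost theirs without Ide-/- replicate 1 or 3, while Pde10a and Pde4a kept theirs in each of these fits. On log2(TPM + 1) values 12 members were higher and 0 lower, so the falls of Pde4a and Arrb1 were then not called. These 12 are 34.3% of the tested list, near the 32.1% of all genes that were higher in that unit, with 2.23% lower.

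Of the 7 genes that process or inactivate melanocortin peptides, 1 rose, 14.3% against 10.4% of all tested genes, and 0 fell. With 7 genes this count is near the background and nothing is read from it about the list. The gene called was Pam, which amidates the end of alpha-MSH and other peptide hormones. Its level went from 139.9 ± 18.3 to 242 ± 15.4 CPM, a log2 difference of 0.79 (SE 0.22, adjusted p = 0.0256). Without Ide+/+ replicate 1 the difference was 0.72 and still called. The call was lost without Ide+/+ replicate 4 or any 1 of the Ide-/- libraries. The prohormone convertase genes Pcsk1 and Pcsk2 were abundant in both genotypes, with 128.9 ± 90.3 and 82.9 ± 28.4 CPM for Pcsk1 (adjusted p = 0.35) and 767 ± 157 and 668 ± 103 CPM for Pcsk2 (adjusted p = 0.68). Cpe, which trims the cut peptides, had 574 ± 70.1 and 631 ± 25.2 CPM (adjusted p = 0.75). Prcp, an enzyme that inactivates alpha-MSH, had 3.81 ± 1.19 and 2.27 ± 0.439 CPM (adjusted p = 0.104).

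None of 4 tested genes of agouti signalling was called by edgeR (2 at an unadjusted p under 0.05), against 21.1% of all tested genes. DESeq2 called 1, limma-voom 0, and limma 2 on log2(TPM + 1) and 1 on log2(TPM + 0.1) values. Over all tested genes DESeq2 called 26%, limma-voom 21.5%, and limma 34.3% and 30.2% in these TPM units. With 4 genes these counts are near those shares and nothing is read from them. Mgrn1, a ubiquitin ligase that restrains melanocortin receptors, had 18.2 ± 3.13 and 12.4 ± 1.08 CPM (adjusted p = 0.0595). It was called lower by edgeR without Ide+/+ replicate 1 (log2 fold change -0.53, adjusted p = 0.0476) and without Ide+/+ replicate 5 (-0.66, adjusted p = 0.0225), so its call rests on which libraries enter. Atrn, the attractin gene, had 10.3 ± 0.657 and 14.6 ± 4.71 CPM (adjusted p = 0.110). Tested on log2(TPM + 1), Mgrn1 was higher in Ide-/- by 0.27, the opposite direction. The agouti gene, symbol a, had 2 counts in all. Of the receptors that bind MRAP2, 1 passed the filter, the ghrelin receptor gene Ghsr, with 0.619 ± 0.363 and 0.813 ± 0.531 CPM (adjusted p = 0.72, not called by any of the tools).

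Few genes beside Mc5r could be tested. Within 500 kb of its start 3 genes were tested and 0 were called by edgeR (0 at an unadjusted p under 0.05), by DESeq2 or by limma-voom, or by edgeR without Ide+/+ replicate 1. With 21.1% of all tested genes called, 0 of 3 is near the background and nothing is read from it. Rnmt, an RNA cap methyltransferase gene that starts 37241 bases upstream, had 19.2 ± 5.82 and 18.9 ± 0.752 CPM (adjusted p = 0.96). Fam210a had 9.98 ± 3.04 and 8.82 ± 0.901 CPM (adjusted p = 0.65), and Ldlrad4 2.32 ± 0.733 and 3.13 ± 0.656 CPM (adjusted p = 0.34). On log2(TPM + 1) values Ldlrad4 was called higher (0.62), as were 32.1% of all tested genes.

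**Figure D4:**
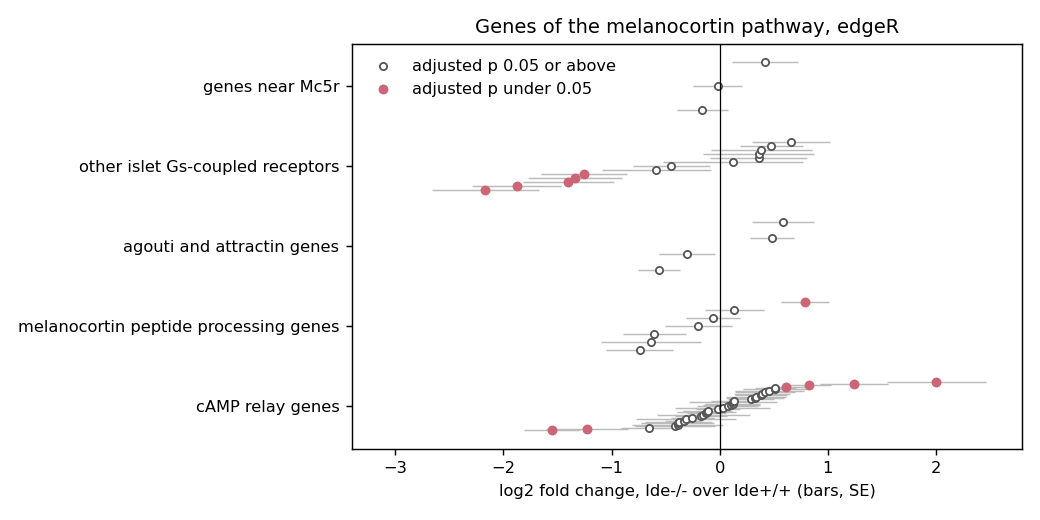
Log2 fold changes, Ide-/- over Ide+/+, on the x axis for the tested genes of 5 lists on the y axis; bars are standard errors and filled points have an edgeR adjusted p under 0.05. In the cAMP relay 4 filled points lie to the right of 0 and 2 to the left, all 5 filled receptor points lie to the left, and no gene near Mc5r is filled.

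The genes whose levels followed Mc5r most closely over the 8 libraries, by Pearson's r of log2 CPM, were Gpatch2 (0.996), Gm4349 (0.993), Gm37969 (0.993), Gm20257 (0.993) and Cdr2 (0.992). The libraries fall into 2 genotypes and share their scaling, and this r does not separate the gap between the genotypes from the spread within them. Gpatch2 was 13.0 to 19.3 CPM in Ide+/+ and 25.3 to 28.4 CPM in Ide-/-, a far smaller difference than that of Mc5r. For Pomc r with Mc5r was 0.843, over the same libraries.

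Markers of other tissues known for melanocortin genes were at 0 or low. The pituitary genes Gh, Prl and Tbx19, the adrenal genes Cyp11b1, Cyp11b2 and Cyp21a1 and the fat cell genes Adipoq, Plin1 and Lep had 0 counts in all 8 libraries. The summed level of the 7 pituitary markers was 0.295 to 0.535 CPM in Ide+/+ and 0.167 to 0.733 CPM in Ide-/-. Tshb, with means of 0.211 and 0.392 CPM, was the highest of these. For the 6 adrenal markers, with Star as the main contributor, it was 1.30 to 2.42 and 1.91 to 2.84 CPM, and for the 6 fat cell markers, with Fabp4 as the main contributor, 9.32 to 23.8 and 21.3 to 33.1 CPM. None of the 5 melanocyte markers was at 0 in all libraries, and their sum was 1.07 to 5.21 CPM in Ide+/+ and 1.34 to 1.65 CPM in Ide-/-, most of it from Dct (1.90 ± 1.75 and 1.22 ± 0.135 CPM, adjusted p = 0.49). Of 11 duct markers 8 were lower in Ide-/-, against 10.6% of all tested genes. Islet markers were abundant. The summed level of the 10 beta cell markers was 35340 to 138300 CPM in Ide+/+ and 83660 to 106200 CPM in Ide-/-. None of the 10 was called, against 21.1% of all tested genes. The 5 delta and PP cell markers summed to 4673 to 10180 CPM and 9895 to 18770 CPM, and of these only Sst, the somatostatin gene, was called, rising from 1817 ± 517 to 4650 ± 2024 CPM (edgeR adjusted p = 0.0475). Of these 5 markers 1 was thus higher, against 10.4% of all tested genes. The others were not called, and Hhex went the other way, with a log2 fold change of -0.86 (SE 0.42). Rbp4, Ghsr and Ppy had 0.33, 0.29 and 0.59. The part of Sst-expressing cells and of the acinar share in the Mc5r and Pomc levels was not tested.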

How the data were processed

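Per the labels' protocols, 100 ng of RNA from hand-picked islets entered each low-input library. Per the submitters' processing notes, the tools were STAR 2.7.1a and RSEM 1.3.1, with the build GRCm38. Neither annotation release nor strand setting is given in the sources used here. The authors deposited per gene an expected count, the RSEM estimate of its reads without normalization, and TPM, a length-corrected share of the library. Symbols and positions came from GENCODE M21, which held 55227 identifiers.

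Expected counts were rounded and tested with edgeR 4.0.16 (R 4.3.3): quasi-likelihood F test, robust dispersion, TMM scaling, filterByExpr (minimum count 10, total 15), genotype as the only term, Benjamini-Hochberg adjustment over all 16266 tested genes, calls at 0.05. The SE of a log2 fold change is its size over the root of its F value. The fit was also run on simulated counts, with the same dispersion for every gene and the same base profile in both genotypes. That setting is simpler than these libraries, and no result rests on it. Alternatives used DESeq2 1.42.0, limma 3.58.1, other scalings, no filter, TPM with pseudocounts 1 and 0.1, and fits without each library. Intervals are exact binomial and cover counting error only.

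The members and lists were chosen with earlier results of these data known. Named were Ide, all 9 members, up to 4 called genes of each list by smallest p (otherwise the 2 tested with the highest mean CPM), every tested gene starting within 500 kb of Mc5r and the 5 genes most correlated with it over the libraries. Other list genes were named after their values were seen, and 1 called receptor is counted but not reported here by name. Same-numbered samples of the 2 genotypes were checked for pairing, no sign of it was seen, and the main fit treated them as unpaired.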

Additional observations from a re-analysis of the deposited data

Results flagged for a closer look

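In 4 genes 1 of the 5 Ide+/+ libraries stood apart from the others, with a gap to its neighbour above 0.71 of the whole range. Chance alone does so in about 5% of groups of normally distributed values, which counts as low as those of Mrap2 and Agrp are not. The list checked held 21 genes, the members and the called list genes, and Mc3r, at 0 throughout, had no range to check. The number flagged is therefore not weighed against the 5%. Mrap2 was 0.501 CPM in Ide+/+ replicate 1, on 5 counts, against at most 0.118 CPM in the other 4. Pomc was 3.21 CPM in the same library, against 2.47 to 2.68 CPM in the others, and still below the lowest Ide-/- value of 4.35 CPM. Agrp was 0.177 CPM in Ide+/+ replicate 4, on 3 counts. Pde4a was 7.30 CPM in Ide+/+ replicate 4, and without that library its log2 fold change was -1.40 and the call was kept.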

How the results depend on the processing

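The log2 fold change of Mc5r was 4.39 to 4.95 in the other count fits on all 8 libraries, 4.29 to 5.22 when 1 library was left out, 3.83 on log2(TPM + 0.1) and 1.52 on log2(TPM + 1) values, whose pseudocount is above the Ide+/+ levels. That of Pomc was 0.877 to 1.87 and upward in every alternative run.

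The counts of called genes moved more (6 of the cAMP relay, 1 of peptide processing, 0 of agouti signalling, 5 of the Gs-coupled receptors, 0 near Mc5r and 3426 of all genes in the main fit). With secretory granule scaling they were 2, 0, 0, 2, 0 and 1195, and the median of all genes moved by over 0.1 to 0.114. On log2(TPM + 1) values they were 12, 2, 2, 0, 1 and 5577. On log2(TPM + 0.1) values agouti signalling had 1 and the receptors 1. With upper-quartile scaling the receptors had 3, and with DESeq2 agouti signalling had 1. Without the low-count filter the cAMP relay had 4. When 1 library was left out, the cAMP relay had 2 to 6, peptide processing 0 to 1, agouti signalling 0 to 1, the receptors 1 to 5 and all genes 1547 to 4280. The cause of these moves was not tested.

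With the replicate block the counts were 1, 0, 0, 2, 0 and 1171. The deviations of same-numbered libraries correlated at 0.049, 0.009 and -0.093, and not every library correlated best with its own number. Other pairs across the genotypes ran from -0.304 to 0.238. This gave no sign of pairing, but so few libraries cannot exclude it. Depth limits the members with few counts, Mc1r, Mc2r, Mc3r and Agrp above all, whose differences were not detectable at this depth.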
